A study of Mus musculus with 12 samples.

Results

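The genes described here are 9 leukocyte receptors for chemoattractants, Ccr1, Ccr2, Cx3cr1, Cxcr2, Cxcr4, Ccrl2, Fpr1, Fpr2 and C5ar1. They were taken by name from the 23420 genes of the count table. Cells labelled M-MDSCs, immature monocytic myeloid cells of the gate CD11b+Ly6G-Ly6Chi, were sorted from bone marrow, labelled as that of the tibia, of 6 young mice, aged 6 months, and 6 aged mice, aged 24 months. All were male C57BL/6JNIA mice, no allele or agent was given to either age, and every mouse gave 1 RNA-seq library. The comparison asked which of the receptors differed in transcript level between the ages, per mouse.

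Chemokine receptors and the related chemoattractant receptors span the membrane and signal through inhibitory G proteins to phosphoinositide 3-kinase, phospholipase C and the Rac GTPases that drive cell movement. In bone marrow, CXCR4 holds myeloid cells near stromal cells that make CXCL12, whereas CXCR2 promotes the release of neutrophils and CCR2 that of classical monocytes. The formyl peptide receptors and the C5a receptor guide cells at sites of infection or tissue damage.

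The unit of level is CPM, in which counts are scaled to a common library size after TMM normalization. Library totals ranged from 8737941 to 16300374 counts in the aged and from 4613239 to 9079237 in the young group. A gene is called where edgeR's quasi-likelihood test gave an adjusted p-value under 0.05 over all 9742 genes tested. Young replicates 5 and 6 stood apart from the other young mice on the first principal component of expression, at 21.9 and 19.995 against 8.73 to 11.1. Aged replicate 1 was at -22.9 against -15.4 to -8.01 in the other aged mice, and aged replicate 7 differed from aged replicates 4, 5 and 6 by a chi-square per gene of 29.8 to 37.8, against at most 21.01 between the other aged mice. That measure uses raw counts and grows with library size, and aged replicate 7 had the largest library (16300374 counts). No mouse was left out. Values without young replicates 5 and 6, or without a single mouse, are given for the 9 receptors where a call or direction changed. For the lists of related genes they are given as counts and for some genes only. The sample numbers of the alignment files were lower for all young mice (11 to 16) than for all aged mice (17 to 26), and what these numbers stand for is not given in the sources used here. Anything that followed them and age cannot be told apart.

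The labelled cell type was checked against marker lists. Ly6c2, which encodes part of the Ly6C antigen of the sort, lay between 605 and 799 CPM in aged and between 367 and 595 CPM in young mice. Itgam, the CD11b gene, lay between 2660 and 3543 CPM over all mice. Transcripts of neutrophil granules were nevertheless the most abundant of the marker genes, which goes against a purely monocytic population, and the gate is used here as a label only. Ngp, the neutrophilic granule protein gene, lay between 34273 and 44393 CPM in aged and between 24875 and 35745 CPM in young mice. The 10 neutrophil markers tested summed to 92747 to 111483 CPM in aged and to 72285 to 98231 CPM in young mice, and 6 of the 10 were called, all higher in aged mice. None of the 10 was near 0, and Ly6g was not analysed here. Of 10 classical monocyte markers, 3 were called (Ly6c2 and Ly6c1 higher, Itgam lower), and the summed level of the 10 ranged from 7813 to 9873 CPM in aged and from 8587 to 9803 CPM in young mice. Of the nonclassical monocyte markers, 6 were tested and 4 called, 3 of them lower (Ace by the most, -1.28) and Cd36 higher (4.001), and all 4 promyelocyte markers tested were called higher, with a median log2 fold change of 1.12. Of the dendritic cell markers, 4 were tested and all were called, H2-Ab1, H2-Aa and Cd74 higher and Clec9a lower (-2.45), with a median of 2.22. Resident macrophage markers reached 1092 CPM in aged replicate 1 and 88.5 to 352 CPM in the other aged mice, against 77.0 to 92.8 CPM in young mice, and all 9 tested were called higher. The part of these cell types in the receptor values was not tested. In sorted populations such as these, more cells of a type and more RNA per cell cannot be told apart.

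The starts of Fpr1 and Fpr2 lie 3885 bases apart on chromosome 17 of mm10, on opposite strands, and only these of the 9 receptors had levels that did not overlap between the ages. The 250 bases upstream of both starts are therefore shown, with those of Ccr1 and Cxcr2, the other receptors whose window held the motif described next. GAGGAA, or TTCCTC on the other strand, is the core recognized by PU.1, a transcription factor of the myeloid lineage, and is in capitals. The sequences are from RefSeq (GRCm38.p6) and run 5′ to 3′ on the strand of the gene, at chr17:17883940-17884189 (minus strand) for Fpr1, chr17:17887574-17887823 (plus strand) for Fpr2, chr9:123968693-123968942 (minus strand) for Ccr1 and chr1:74153744-74153993 (plus strand) for Cxcr2.
Fpr1: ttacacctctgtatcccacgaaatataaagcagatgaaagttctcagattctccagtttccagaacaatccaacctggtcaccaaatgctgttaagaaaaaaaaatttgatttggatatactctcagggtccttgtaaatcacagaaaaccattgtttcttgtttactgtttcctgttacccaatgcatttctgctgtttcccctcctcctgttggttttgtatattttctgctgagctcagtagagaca
Fpr2: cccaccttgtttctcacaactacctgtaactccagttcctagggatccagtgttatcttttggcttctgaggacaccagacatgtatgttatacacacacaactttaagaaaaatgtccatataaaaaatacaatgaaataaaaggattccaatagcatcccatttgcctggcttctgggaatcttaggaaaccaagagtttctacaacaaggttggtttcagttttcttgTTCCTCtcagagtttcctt
Ccr1: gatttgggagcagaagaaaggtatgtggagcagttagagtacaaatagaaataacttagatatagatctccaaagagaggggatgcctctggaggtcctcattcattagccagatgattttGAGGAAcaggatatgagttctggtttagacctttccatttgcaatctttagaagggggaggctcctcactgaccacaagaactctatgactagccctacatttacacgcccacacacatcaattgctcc
Cxcr2: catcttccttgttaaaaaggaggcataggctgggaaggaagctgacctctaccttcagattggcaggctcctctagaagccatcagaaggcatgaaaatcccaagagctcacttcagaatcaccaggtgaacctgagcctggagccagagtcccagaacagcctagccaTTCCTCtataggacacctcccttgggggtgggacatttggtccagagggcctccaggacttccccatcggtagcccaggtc
The core began 129 bases before the start of Ccr1, 81 bases before that of Cxcr2 and 19 bases before that of Fpr2. It was thus found in 3 of the 9 upstream windows, against 23.3% of all 32817 windows of this length. For C5ar1 the window lay before a RefSeq start at 16259338, which is 202 bases from the start in the count table. TATAAA, searched on both strands, was found in 3 of the 9 (Cxcr4, Fpr1 and Fpr2) against 12.4% of all windows, and TTGCNNAA, a C/EBP motif searched likewise, in 0 of the 9 against 9.57%. A match only means that these letters are present.

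Fpr2, Fpr1, Ccr1, C5ar1 and Cxcr4 were called higher in the aged group, which is 5 of the 9 receptors, and none was called lower. All 9 passed the filter on low counts. Of all genes tested, 45.4% were called, 22.4% higher in aged mice (2185 genes) and 23.0% lower (2240 genes). The median log2 fold change of the 9 receptors was 0.35, against 0.01 for all genes and 0.07 for the 5171 genes with an exon length between 1296 and 3753 bases, the range of the receptors. Of those 5171 genes, 1274 were called higher and 695 lower. Without young replicates 5 and 6, 3 of the 9 receptors were called (Fpr2, Fpr1 and C5ar1), and 3157 genes in all.

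**Figure D1:**
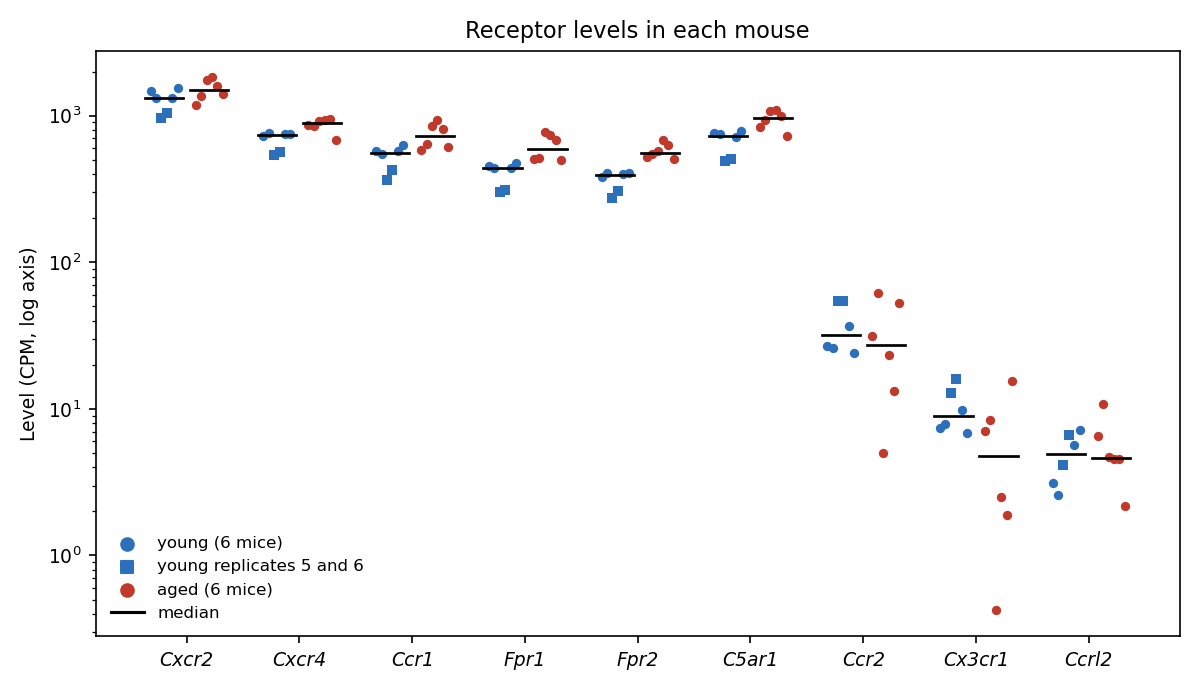
Level of each receptor in each mouse, in CPM on a log axis, with the young mice in blue, the aged mice in red and the median as a line. The 6 abundant receptors lie between 274 and 1827 CPM in every mouse and the other 3 at 62.0 CPM or less, and only Fpr1 and Fpr2 have aged mice all above young mice.

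Formyl peptide receptors showed the largest rises among the 9 receptors before any correction for gene length, after which Ccr1 (0.51) and C5ar1 (0.46) lay above them. Fpr1 (chromosome 17, 17876471 to 17883939, minus strand) encodes the high-affinity receptor for N-formyl peptides from bacteria and mitochondria. In aged mice its lowest, median and highest levels were 495, 598 and 776 CPM, and in young mice 303, 439 and 477 CPM. Every aged mouse lay above every young mouse, with young replicates 5 and 6 the lowest at 303 and 313 CPM. Fpr1 rose by 0.62 on the log2 scale (standard error 0.146, adjusted p = 0.00342, edgeR). Without young replicates 5 and 6, its rise was 0.43 (adjusted p = 0.0178, edgeR).

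Fpr2 (chromosome 17, 17887824 to 17893952, plus strand) encodes a receptor with many ligands, among them annexin A1, serum amyloid A and the cathelicidin peptide. Its levels were 510, 559 and 678 CPM (lowest, median and highest) in aged mice and 274, 391 and 405 CPM in young mice. The 2 ages were again separate, by a wider gap than for Fpr1, from 405 to 510 CPM. Fpr2 rose by 0.67 (standard error 0.107, adjusted p = 2.61e-04, edgeR), the smallest p-value of the 9 receptors. Non-overlapping levels were found in 21.8% of all genes tested, and in 9.68% with the aged mice above.

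The 2 genes have the shortest exon lengths of the 9, 1323 and 1296 bases, and fold changes depended on gene length in these libraries. After correction of each library for gene length, the log2 fold change was 0.37 for Fpr1 (adjusted p = 0.0363, edgeR) and 0.41 for Fpr2 (adjusted p = 0.00228, edgeR), both still called. The ratio of Fpr1 to Fpr2 within a mouse was similar at both ages, with a mean log2 ratio of 0.08 ± 0.20 (SD, n = 6) in aged and 0.15 ± 0.09 (SD, n = 6) in young mice. The difference of -0.06 did not pass an exact two-sided permutation test over mice (p = 0.502, adjusted over the 4 ratios tested 0.502). It was -0.14 without aged replicate 4 (exact permutation p = 0.0411), in which the ratio was highest at 0.44.

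C5ar1 and Ccr1 were likewise called higher in aged mice. C5ar1 (chromosome 7, 16246743 to 16259540, minus strand) encodes the signalling receptor for the complement fragment C5a. Its lowest, median and highest levels were 729, 963 and 1096 CPM in aged and 494, 732 and 783 CPM in young mice. Aged replicate 7 (729 CPM) lay within the young range, and the other 5 aged mice lay above every young mouse. C5ar1 rose by 0.49 (standard error 0.134, adjusted p = 0.00777, edgeR), and by 0.30 without young replicates 5 and 6 (adjusted p = 0.0309, edgeR). After the length correction it was 0.46 (adjusted p = 0.0159, edgeR).

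Ccr1 (chromosome 9, 123962126 to 123968692, minus strand) encodes a receptor for inflammatory CC chemokines such as CCL3, CCL5, CCL6 and CCL9. Its levels were 586, 731 and 936 CPM in aged and 365, 559 and 630 CPM in young mice, in the same order. Aged replicates 4, 5 and 6 and, by a small margin, replicate 2 lay above every young mouse, whereas replicates 1 and 7 did not. Ccr1 rose by 0.51 (standard error 0.146, adjusted p = 0.00999, edgeR), but without young replicates 5 and 6 the value was 0.33 and no longer called (adjusted p = 0.0527, edgeR). The length correction left it at 0.51 (adjusted p = 0.0155, edgeR).

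Cxcr4 and Cxcr2 encode receptors with opposed roles in the marrow. Cxcr4 (chromosome 1, 128588199 to 128592299, minus strand) encodes the receptor for CXCL12 that retains cells there. Its lowest, median and highest levels were 685, 891 and 956 CPM in aged and 540, 735 and 757 CPM in young mice. Of the aged mice, 5 lay above every young mouse, and aged replicate 7 (685 CPM) lay below 4 of the young mice. Cxcr4 rose by 0.35 (standard error 0.106, adjusted p = 0.0142, edgeR). The call was lost with the length correction (0.21, adjusted p = 0.104, edgeR) and without young replicates 5 and 6 (0.20, adjusted p = 0.0743, edgeR).

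Cxcr2 (chromosome 1, 74153994 to 74161246, plus strand) encodes the receptor for CXCL1, CXCL2 and CXCL5 on neutrophils. It had 1177, 1499 and 1827 CPM in aged and 964, 1327 and 1542 CPM in young mice, and the ages overlapped, with 3 aged mice above every young mouse. Its log2 fold change of 0.25 was not called (standard error 0.130, adjusted p = 0.129, edgeR), and was 0.08 without young replicates 5 and 6 (adjusted p = 0.606, edgeR). The log2 ratio of Cxcr2 to Cxcr4 within a mouse was 0.80 ± 0.21 (SD, n = 6) in aged and 0.90 ± 0.10 (SD, n = 6) in young mice. The difference of -0.10 was within the spread between mice (exact two-sided permutation p = 0.336, adjusted 0.447), and with the length correction it was 0.06 in the opposite direction (exact permutation p = 0.578).

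**Figure D2:**
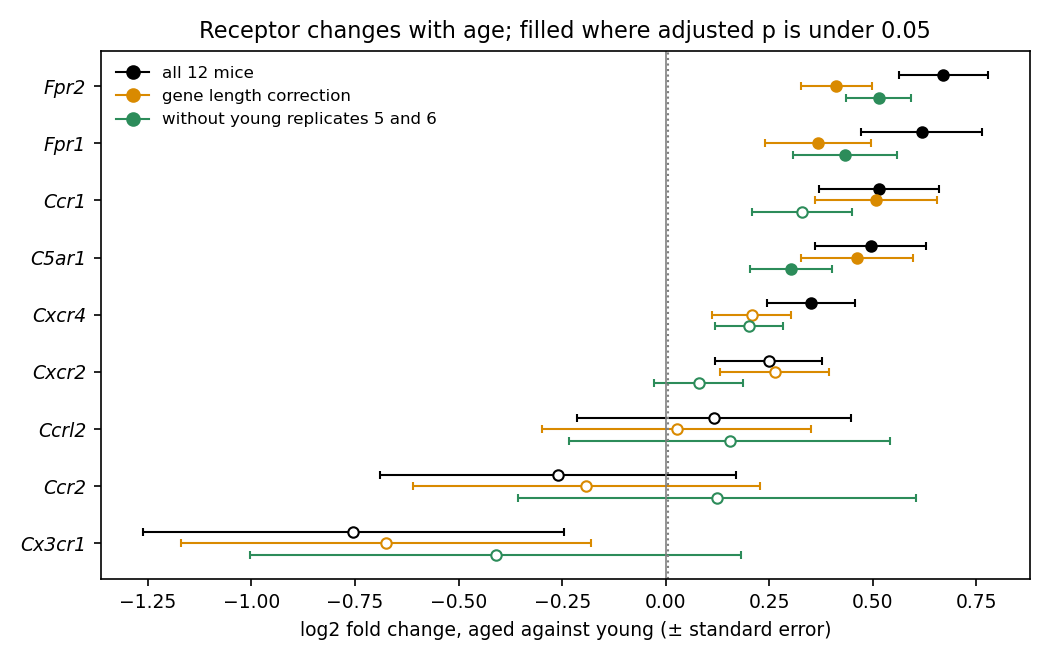
Log2 fold change of each receptor between aged and young mice with its standard error, from edgeR with all 12 mice (black), with a correction for gene length (orange) and without young replicates 5 and 6 (green). Filled points have an adjusted p-value under 0.05, and the dotted line is the median of all genes at 0.01. Fpr1, Fpr2 and C5ar1 are filled in all 3 fits, while Ccr2, Cx3cr1, Ccrl2 and Cxcr2 are open in all 3.

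The monocyte receptors Ccr2 and Cx3cr1 were low and varied widely among aged mice. Ccr2 (chromosome 9, 124102183 to 124109140, plus strand) encodes the receptor for CCL2, CCL7 and CCL12. Its levels in aged mice were 5.03 CPM in replicate 4, 13.3 in replicate 6, 23.3 in replicate 5, 31.6 in replicate 1, 52.4 in replicate 7 and 62.0 in replicate 2. In young mice its lowest, median and highest levels were 23.9, 31.8 and 54.7 CPM, with replicates 5 and 6 at the top. The highest level was thus 12.3 times the lowest in aged mice and 2.29 times in young mice, and the ages overlapped. The log2 fold change of -0.26 was not called (standard error 0.430, adjusted p = 0.643, edgeR), and was 0.12 without young replicates 5 and 6 (adjusted p = 0.864, edgeR).

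Cx3cr1 (chromosome 9, 120048683 to 120068296, minus strand) encodes the fractalkine receptor, a marker of nonclassical monocytes and of monocyte-derived cells. In aged mice it ranged from 0.43 CPM in replicate 4 (4 counts) through a median of 4.76 to 15.4 in replicate 7, and in young mice from 6.86 through 8.88 to 15.99 CPM. Aged replicates 4, 5 and 6 lay below every young mouse, and the other 3 lay within the young range. The log2 fold change of -0.75 was not called (standard error 0.508, adjusted p = 0.238, edgeR). It was -1.37 without aged replicate 7, and was then called (adjusted p = 0.0265, edgeR), so that 1 mouse decided the call.

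Ccr2 and Cx3cr1 moved together from mouse to mouse. This relation and that of Ccr2 with Cxcr2 given below were picked after the data were seen, so their p-values are a description only. Pearson's r of their log2 CPM was 0.960 over the 6 aged mice (exact permutation p = 0.00417, adjusted over 4 relations 0.00833) and 0.972 over the 6 young mice (exact permutation p = 0.00417, adjusted 0.00833). Spearman's rho was 0.943 at both ages (exact permutation p = 0.0167, adjusted 0.0333). Without the 2 mice farthest from the median of Ccr2, r was 0.954 in aged and 0.965 in young mice, over 4 mice each. The log2 ratio of Ccr2 to Cx3cr1 was 2.70 ± 0.62 (SD, n = 6) in aged and 1.85 ± 0.14 (SD, n = 6) in young mice. Of the aged mice, 5 had a ratio above all young mice, from 2.16 to 3.40 against at most 2.09, and aged replicate 7 was at 1.76. This difference of 0.85 had an exact two-sided permutation p of 0.0173, which became 0.0693 with adjustment over the 4 ratios. It was 0.89 without young replicates 5 and 6 (exact permutation p = 0.0333). In aged replicate 4, the highest ratio rests on 4 counts of Cx3cr1, and without that mouse the difference was 0.71.

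Across the ages, F13a1, the factor XIII A gene and a marker of classical monocytes, was the gene whose level followed Ccr2 most closely, with r = 0.986 over the 12 mice after centring on the mean of each age. Its level was 2.57 to 44.0 CPM in aged and 17.6 to 39.2 CPM in young mice, with the lowest in the aged mouse with the least Ccr2. Cx3cr1 ranked next for Ccr2 (r = 0.956). For Cx3cr1 the closest were Plk1, a kinase of mitosis (r = 0.982), and F13a1 (r = 0.972). The log2 ratio of Ccr2 to Cxcr4 was -5.21 ± 1.47 (SD, n = 6) in aged and -4.27 ± 0.75 (SD, n = 6) in young mice, and the difference of -0.94 did not pass an exact permutation test (p = 0.197, adjusted 0.394). Without young replicates 5 and 6 the difference was -0.48 (exact permutation p = 0.576), and it was also -0.48 without aged replicate 4.

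**Figure D3:**
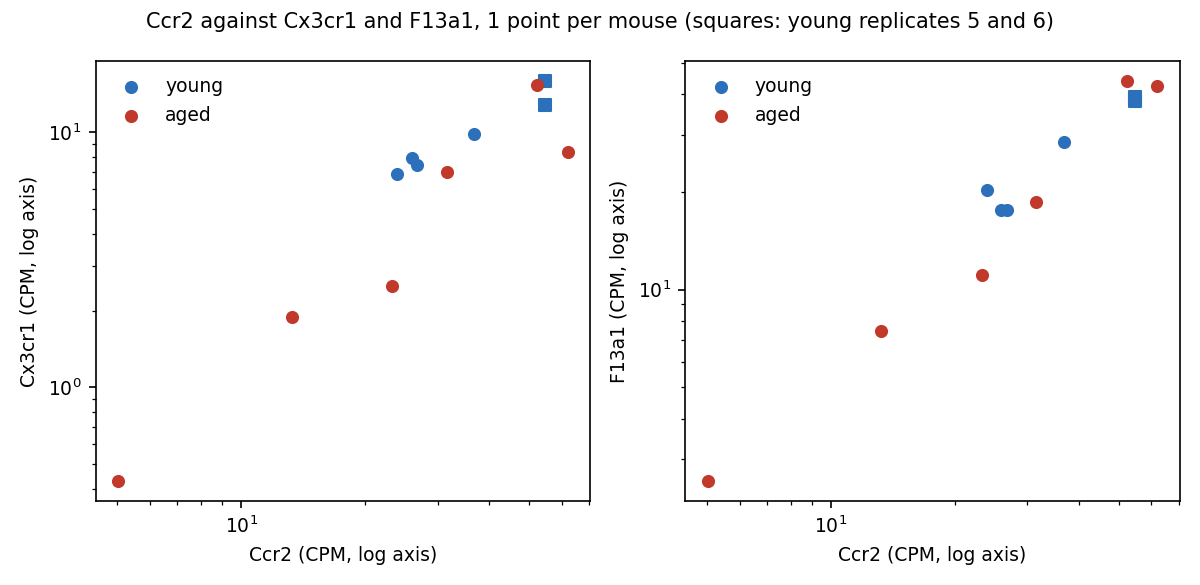
Level of Cx3cr1 (left) and of F13a1 (right) against that of Ccr2, in CPM on log axes, with a point per mouse, the young in blue, the aged in red and young replicates 5 and 6 as squares. Both genes increase with Ccr2, and the aged mice spread from 5.03 to 62.0 CPM of Ccr2 while the young lie between 23.9 and 54.7 CPM.

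**Figure D4:**
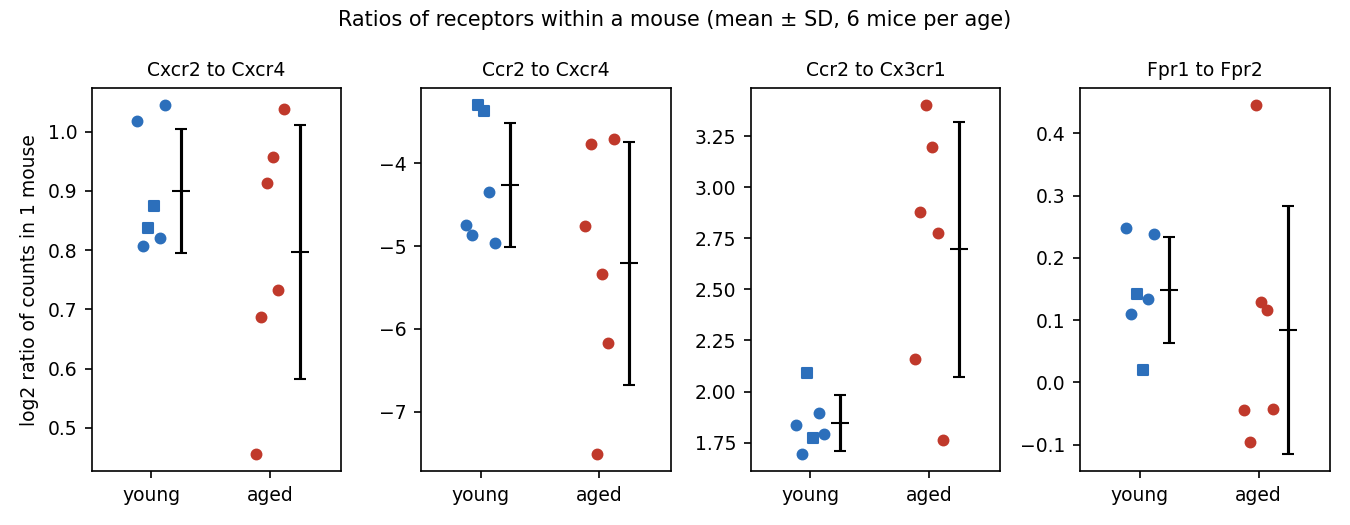
Log2 ratio of the counts of 2 receptors within a mouse, for 4 pairs, with the young mice in blue (replicates 5 and 6 as squares), the aged in red, and the mean ± SD of 6 mice in black. In the ratio of Ccr2 to Cx3cr1, 5 of 6 aged mice lie above the young mice, and the ages overlap in all 4 ratios.

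Ccrl2 (chromosome 9, 111054835 to 111057270, minus strand) encodes an atypical receptor that binds chemerin without signalling through G proteins. It was at 2.19, 4.62 and 10.8 CPM in aged and 2.57, 4.89 and 7.22 CPM in young mice (lowest, median and highest), and the ages overlapped. The log2 fold change was 0.12 and was not called (standard error 0.331, adjusted p = 0.794, edgeR). It turned to -0.17 without aged replicate 2, the mouse with 10.8 CPM, and to -0.10 with limma-voom, neither of them called.

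Compared per kilobase of exon, Cxcr2 was the most abundant receptor, at 499 ± 80.9 CPM per kb (SD, n = 6) in aged and 420 ± 75.5 (SD, n = 6) in young mice. Cxcr4 (479 in aged, 376 in young), Fpr1 (468 and 305), Fpr2 (445 and 280), C5ar1 (367 and 260) and Ccr1 (262 and 183 CPM per kb) followed in the same order at both ages. Each of these neighbours overlapped in range with the next. Ccr1 and Ccr2 were separated at both ages, with Ccr2 at 8.71 ± 6.19 CPM per kb in aged and 10.3 ± 3.99 in young mice (SD, n = 6). Ccrl2 (2.64 in aged, 2.32 in young) and Cx3cr1 (1.58 and 2.70 CPM per kb) exchanged places with age, and their ranges overlapped at both ages. Within a mouse, the level of Cxcr2 per kilobase was 20.8 to 76.0 times that of Ccr2 in the young and 25.9 to 409 times in the aged.

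Among the 9 receptors, the 6 abundant ones varied together over the 12 mice after centring within age. The values of r between pairs of Ccr1, Cxcr2, Cxcr4, Fpr1, Fpr2 and C5ar1 lay between 0.752 (Cxcr2 and Cxcr4) and 0.973 (Ccr1 and Fpr1). Their r with Ccr2 lay between -0.813 (Fpr1) and -0.488 (Fpr2), so mice with more Ccr2 tended to have less of them. Ccrl2 followed none of the others, with r between -0.181 and 0.170. These values are a description of libraries that share their total, in which young replicates 5 and 6 were low for all 6 abundant receptors and high for Ccr2. Within an age, Ccr2 and Cxcr2 had r = -0.946 in young mice (exact permutation p = 0.0111, adjusted 0.0148; Spearman's rho -0.771, p = 0.103, adjusted 0.137), which fell to -0.646 without young replicates 5 and 6. In aged mice r was -0.623 (exact permutation p = 0.189, adjusted 0.189), rho was -0.657 (p = 0.175, adjusted 0.175), and without the 2 mice farthest from the median r was -0.468.

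The genes most like each abundant receptor in this measure came from many functions. For Ccr1 they were Bcl10, a signalling adaptor (r = 0.990), and Sh3glb1 (r = 0.981). For Cxcr2 they were Mmp25, a membrane-bound metalloproteinase of neutrophils (r = 0.984), and Selplg, the selectin ligand PSGL-1 (r = 0.977). For Cxcr4 they were Tex261 (r = 0.982) and the tetraspanin gene Cd82 (r = 0.977). Fpr1 was followed by Hhex, a homeobox gene (r = 0.975), and Siglece, an inhibitory sialic acid receptor (r = 0.975), and Fpr2 by Capza1, an actin capping protein (r = 0.983), and Tmem120a (r = 0.982). For C5ar1 they were Dazap2 (r = 0.985) and Chsy1 (r = 0.982), and for Ccrl2 the immediate early gene Fos (r = 0.920) and Trib1 (r = 0.903).

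The other receptors of the same families were mostly absent or low. Of 17 other chemokine receptor genes, 2 were tested and both were called higher in aged mice, and Ccr4 and Ccr8 were at 0 counts in all mice. Cxcr1, the paralog of Cxcr2 whose start lies 40637 bases away from that of Cxcr2, was at 4.07, 6.55 and 15.1 CPM (lowest, median and highest) in aged and 1.43, 2.16 and 3.001 CPM in young mice. The ages did not overlap, and Cxcr1 rose by 1.79 (standard error 0.309, adjusted p = 4.67e-04, edgeR). Ccr3, an eosinophil receptor whose gene lies between Ccr1 and Ccr2, was at 1.75 to 27.8 CPM in aged and 0.977 to 3.71 CPM in young mice, and was higher by 1.97 in aged mice (adjusted p = 0.0226, edgeR). The call was lost without aged replicate 1 (1.06, adjusted p = 0.0762, edgeR), without young replicate 5 (1.80, adjusted p = 0.0521, edgeR) and without young replicates 5 and 6 (1.76, adjusted p = 0.101, edgeR), and with limma-voom (1.25, adjusted p = 0.169). Of 6 eosinophil markers, 1 was tested, Siglecf, named Siglec5 in the count table, which was called higher (0.38, adjusted p = 0.0205, edgeR). The 6 summed to 11.5 to 17.4 CPM in aged and 9.55 to 13.5 CPM in young mice.

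Of 17 other chemoattractant receptor genes in the table, 9 were tested and 5 were called, all higher in aged mice (Ltb4r1, S1pr2, S1pr4, P2ry2 and P2ry6), with a median log2 fold change of 0.43 over the 9. Ltb4r1, the receptor for leukotriene B4 on neutrophils, was at 419 to 448 CPM in aged and 239 to 342 CPM in young mice without overlap. It rose by 0.52 (standard error 0.082, adjusted p = 2.46e-04, edgeR), and by 0.29 after the length correction (adjusted p = 0.00352, edgeR). C5ar2, the second C5a receptor, lies 2588 bases from C5ar1, and was at 90.4 to 141 CPM in aged and 107 to 142 CPM in young mice. Its log2 fold change of -0.07 was not called (adjusted p = 0.618, edgeR), unlike that of C5ar1, and the difference between the genes was not tested. Ptafr (0.26), Cmklr1 (1.15) and S1pr1 (-0.11) were not called either. Cmklr1 rested on single mice, at 0.40 without aged replicate 1 (adjusted p = 0.351, edgeR), and called at 1.33 without aged replicate 5 (adjusted p = 0.0469, edgeR) or replicate 7 (adjusted p = 0.0436, edgeR). The Fpr2 paralogs Fpr-rs3, Fpr-rs4 and Fpr-rs6 had 0 counts in all mice, and Fpr3 had at most 0.217 CPM. Fragments under a mapping quality of 60 had not been counted, so that counts of genes with close copies are uncertain.

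Of 22 ligands of the 9 receptors, 10 were tested, 4 were called higher and 1 lower in aged mice, with a median of 0.28. Cxcl12, the ligand of CXCR4 made mainly by stromal cells, had the largest rise, from 1.84 to 11.5 CPM in young mice to 5.45 to 73.8 CPM in aged mice. The rise was 2.35 on the log2 scale (standard error 0.544, adjusted p = 0.00309, edgeR). Anxa1, the annexin A1 gene, was abundant, at 5244 to 6660 CPM in aged and 3625 to 4835 CPM in young mice without overlap. It rose by 0.47 (standard error 0.093, adjusted p = 0.00107, edgeR), and by 0.24 after the length correction (adjusted p = 0.0333, edgeR). Camp, the cathelicidin gene and also 1 of the neutrophil granule markers, rose by 0.47 (adjusted p = 0.0320, edgeR). Mif rose by 1.37 (adjusted p = 0.00582, edgeR) but had at most 5.91 CPM in any mouse, and its counts are uncertain because the gene has processed copies. Ccl3, a ligand of CCR1, fell by 1.15 on the log2 scale (standard error 0.303, adjusted p = 0.00654, edgeR), and the call was lost without young replicates 5 and 6 (-0.89, adjusted p = 0.0547, edgeR). Ccl6 (0.45), Ccl9 (0.03), Ccl4 (0.12), Cxcl2 (-0.73) and Hc (-0.51) were not called. Without young replicates 5 and 6, 3 ligands were called, as after the length correction.

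The signalling genes downstream of these receptors moved in both directions. Of 32 tested, 12 were called higher and 11 lower in aged mice, with a median of -0.09. The genes called higher included the G protein subunits Gnai2, Gnai3, Gnb1, Gnb2 and Gng2, the Rac GTPases Rac1 and Rac2, the actin regulator Was, the arrestin Arrb2 and the regulators Rgs18 and Rgs19. Rac1 had the largest rise, from 254 to 356 CPM in young mice to 393 to 452 CPM in aged mice, or by 0.42 on the log2 scale (standard error 0.088, adjusted p = 0.00152, edgeR). The genes called lower held Elmo1 and Dock2, which form an exchange factor for Rac, Vav1, Nckap1l, the phosphoinositide 3-kinase subunits Pik3r5 and Pik3r6, the phospholipase Plcb2, and for desensitization Arrb1, Grk5, Adrbk2 and Rgs14. Elmo1 had the smallest p-value, with 175 to 226 CPM in aged and 249 to 290 CPM in young mice, and fell by 0.51 (standard error 0.069, adjusted p = 8.2e-05, edgeR). Adrbk2, the gene of the receptor kinase GRK3, had the largest fall (-0.79, adjusted p = 0.0470, edgeR), but was kept in only 4 of the 12 fits that left out 1 mouse. The call was lost without aged replicates 2, 4, 5 or 6 or young replicates 2, 5, 6 or 9 (log2 fold changes -0.84 to -0.62, adjusted p up to 0.123, edgeR). It was also lost with the length correction (-0.40, adjusted p = 0.305, edgeR), upper quartile factors (-0.75, adjusted p = 0.0630), thinning (-0.72, adjusted p = 0.0839) and without young replicates 5 and 6 (-0.35, adjusted p = 0.407, edgeR).
After the length correction 13 of the 32 genes were called, and Elmo1 was at -0.26 (adjusted p = 0.00784, edgeR). Without young replicates 5 and 6, 16 were called, and 17 to 22 when 1 mouse was left out, so some of the genes named depend on single mice.

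**Figure D5:**
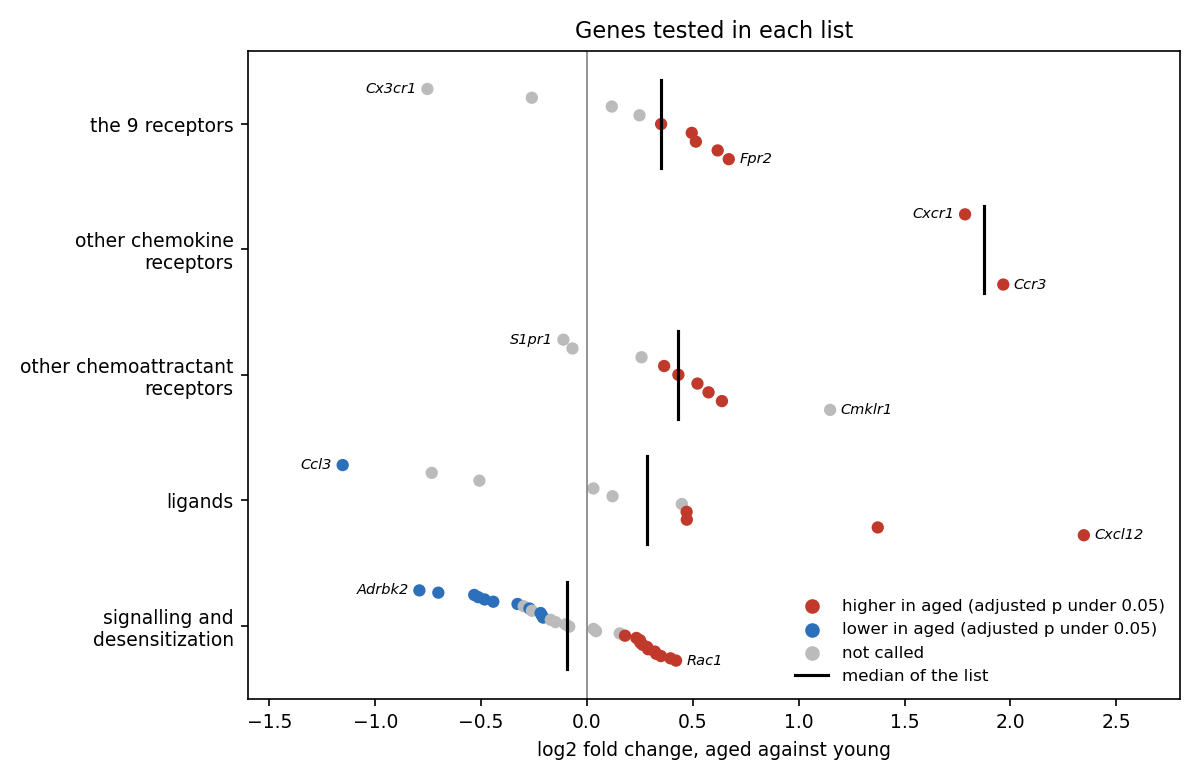
Log2 fold change between aged and young mice of every tested gene in the 9 receptors and 4 lists of related genes, red where called higher, blue where called lower and grey where not called, with the median of each list as a black line. The receptor lists hold red and grey points only, and the signalling list has 12 red and 11 blue points.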

How the data were processed

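RNA from sorted cells labelled M-MDSCs was sequenced as stranded, paired-end libraries, 1 per mouse. Per the file headers, the authors counted fragments over exons with featureCounts 2.0.0 on an mm10 annotation, with both ends aligned and a mapping quality of at least 60. The deposited counts are whole numbers without normalization, and the aligner is not given in the sources used here. No column was left out. Coordinates and exon lengths, the number of bases over exons, are those the authors deposited.

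Groups were taken from the sample labels. Counts were tested here with edgeR 4.0.16 in R 4.3.3 (filterByExpr, TMM factors, quasi-likelihood test, Benjamini-Hochberg adjustment over 9742 genes, threshold 0.05). The procedure was tried on simulated counts, with 100 genes changed by 0.5 and 100 by 1 on the log2 scale. It recovered 48 and 90 of them, with 6 false calls. A change of 0.5 or less can therefore go uncalled. For CPM, the counts of each library were divided by its TMM-adjusted total. Log2 CPM used a prior count of 2, log2 ratios a prior count of 0.5. Ratios were compared by exact two-sided permutation over mice, with 0.00216 as the smallest possible p-value. The biological coefficient of variation was 15.7%, and counting error is small beside it for the 6 abundant receptors but not for genes of a few counts. The alternatives were DESeq2 1.42.0, limma-voom 3.58.1, other factors and filters, corrections for gene length and GC content, thinning, and leaving out mice. The smallest chi-square per gene between libraries of an age was 1.72, so no library was counted as a repeat.

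Promoter windows of RefSeq (GRCm38.p6) were matched to all 9 receptors by symbol. The members and lists were chosen with earlier results of these data known. The genes named are the 9 receptors, their neighbours in receptor clusters, the largest rise, largest fall and smallest p of each list, list members not called where these are 5 or fewer, the 2 most abundant of a marker list, and the 2 genes most like each receptor. The genes spelled out among those called in the signalling and chemoattractant lists, and the examples Camp and Mif, were chosen after their values were seen. Some genes of the lists are not reported here by name.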

Additional observations from a re-analysis of the deposited data

Results flagged for a closer look

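In 50 groups of 6 mice examined, 3 had a mouse whose level lay far from the other mice of its age, where chance sets apart about 1 group in 20. Ccr3 was at 27.8 CPM in aged replicate 1, and the other aged mice lay much lower. Cmklr1, the chemerin receptor gene, was at 9.92 CPM in the same mouse, which also had the highest summed level of resident macrophage markers (1092 CPM) and of dendritic cell markers (1032 CPM). Cxcr1 was at 15.1 CPM in aged replicate 5, and remained called without that mouse (log2 fold change 1.45, adjusted p = 3.41e-04, edgeR). None of the 9 receptors had such a mouse at either age.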

How the results depend on the processing

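The calls of Ccr1, Cxcr4, Fpr1, Fpr2 and C5ar1 were kept in all 12 fits that left out 1 mouse and with DESeq2, limma-voom, other scaling factors, other count filters, thinning and the GC correction, in which 5 receptors were called each time (5 to 6 when 1 mouse was left out). The cause of the changes listed here was not tested. Leaving out 1 mouse, the log2 fold change of Ccr2 ranged from -0.56 to -0.04, that of Cx3cr1 from -1.37 to -0.52 (called in 1 fit), that of Ccrl2 from -0.17 to 0.30, that of S1pr1 from -0.27 to 0.0128, that of C5ar2 from -0.12 to 0.00726 the log2 ratio of Fpr1 to Fpr2 from -0.14 to -0.0281, that of Ccr2 to Cxcr4 from -1.24 to -0.48 and that of Cxcr2 to Cxcr4 from -0.15 to -0.0343 (highest without aged replicate 1). Without young replicates 5 and 6, a choice made after seeing the data as was the GC correction, 3 receptors were called, and Ccr1 (0.33) and Cxcr4 (0.20) were not, while Ccr2 turned to 0.12. With limma-voom Ccrl2 turned to -0.10, Ccr2 was at -0.60 and Cx3cr1 at -1.36 (adjusted p = 0.0695), and none of them was called. With the length correction Cxcr4 was 0.21 and not called, and the log2 ratio of Cxcr2 to Cxcr4 turned to 0.058.

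Of the other chemokine receptors, 4 were called with DESeq2 and with no filter, 1 with limma-voom and without young replicates 5 and 6, 0 with at least 10 counts in every mouse (where none could pass the filter), and 1 to 2 when 1 mouse was left out. Of the ligands, 8 were called with DESeq2 and with no filter, and 3 with at least 10 counts, with the length correction and without young replicates 5 and 6. Of the signalling genes, 13 were called with the length correction, 16 without young replicates 5 and 6, and 17 to 22 when 1 mouse was left out. The other chemoattractant receptors called numbered 4 without young replicates 5 and 6, and 4 to 6 when 1 mouse was left out. Ligands called numbered 4 to 6 when 1 mouse was left out. Cx3cr1 could not be fitted with at least 10 counts in every mouse. Without TMM factors, 1682 genes were called higher and 2762 lower in aged mice, against 2185 and 2240, and the median of all genes was -0.08. Upper quartile factors gave 2501 higher and 2011 lower.

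Replicate numbers 1, 2, 5 and 6 occur at both ages, and the sources used here do not state that they pair mice. The deviations of mice of the same number from their age did not go together (correlations -0.14, -0.07, -0.24 and -0.25). So few values do not decide whether these mice share more than a number. In a fit of those 8 mice with the replicate block, 4 receptors and 3446 genes were called, Ccr1 was at 0.63 and not called (adjusted p = 0.0552, edgeR), 2 other chemoattractant receptors and 13 signalling genes were called, and the log2 ratio of Ccr2 to Cx3cr1 was 0.90 with the smallest p-value possible (exact permutation p = 0.125). With the block and the length correction, 1875 genes and 0 receptors were called, with Ccr1 at 0.64, Cxcr4 at 0.31, Fpr1 at 0.38, Fpr2 at 0.47 (adjusted p = 0.0599) and C5ar1 at 0.61 (adjusted p = 0.0585), and 0 other chemoattractant receptors, 1 ligand and 6 signalling genes were called, while C5ar2 turned to 0.081. The same 8 mice without the block gave 4394 called genes and 6 called receptors, with Cx3cr1 at -1.23 (adjusted p = 0.0383, edgeR). Adrbk2 was not called in these 8 mice with the block (-1.01, adjusted p = 0.136, edgeR) or without it (-0.95, adjusted p = 0.0723, edgeR). Ccl3 was not called with the block (-0.77, adjusted p = 0.229, edgeR) or without it (-0.90, adjusted p = 0.0890, edgeR). With the block and the length correction Ccl3 was at -1.38 and not called (adjusted p = 0.0930, edgeR). Depth limits Cx3cr1, Ccrl2 and the low family members, where a count of 3 stood for up to 0.35 CPM in aged and up to 0.643 CPM in young mice.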
